A study of Caenorhabditis elegans with 33 samples.

Results

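Small RNAs of adult Caenorhabditis elegans carrying alg-1(gk214), a loss-of-function mutation of the microRNA Argonaute ALG-1, were compared with those of wild type adults in 4 small RNA libraries. The libraries were chosen by their labels and column headers, and they are 4 of the 18 small RNA libraries and of the 33 libraries in the series. The mutant group is 1 library of genotype alg-1(gk214) X. The wild type group is 3 libraries of the N2 strain, named here wild type 1, 2 and 3 after the number of the experiment in the headers. The mutant and wild type 2 belong to the same experiment, so wild type 2 was the comparator, and wild type 1 and 3 gave the range of other wild type adults. All 4 were whole gravid adults grown at 20 °C on OP50 bacteria and collected 68 h after the first larval stage was synchronised. Each library therefore holds soma, germline and any embryos inside the mother. RNA of 18 to 28 nt was gel-purified and treated to open 5′ triphosphates, which lets secondary siRNAs be cloned beside miRNAs and piRNAs. Values are in RPM, the reads of a name scaled to a fixed total of reads per library.

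Argonautes are proteins that hold a small RNA and use it to find target transcripts. A miRNA is cut from a hairpin as a duplex, of which 1 arm, the guide, normally stays in the Argonaute and is stabilised there, while the other arm, the passenger, is discarded. ALG-1 and ALG-2 are the main miRNA Argonautes of the worm soma, and let-7 and lin-4, which time larval development, are among their best-known guides. The 21U piRNAs act with the Argonaute PRG-1 in the germline. CSR-1 siRNAs are 22G siRNAs that match transcripts expressed in the germline, and Mutator siRNAs are the 22G siRNAs that depend on the mutator proteins and are held by worm-specific Argonautes (WAGOs), many of which silence transposons, pseudogenes and other genes.

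The mutant library held 3073089 reads, and the wild type libraries held 11483791, 1622092 and 8388498 reads. With 1 mutant library no difference has a replicate check, so calls rest on size and on the range of wild type, not on a test. A name was called higher or lower when it reached 10 RPM in the mutant or wild type 2, differed at least 2-fold between them on the log2(RPM + 1) scale, and lay outside the range of all 3 wild type adults. Wild type 2 stood apart from the other wild type adults. Of 162 miRNA names, 48 (29.6%) were at least 2-fold higher and 23 (14.2%) at least 2-fold lower in wild type 1 than in wild type 2, against 6 (3.82%) and 7 (4.46%) of 157 for wild type 1 over wild type 3. The deposited mRNA table of fourth-stage (L4) larvae, from other animals, gives the mutated gene in FPKM (fragments scaled by transcript length and library size). alg-1 had 10.7, 16.3 and 12.1 FPKM in alg-1(gk214) larvae, against 28.9, 29.4 and 32.7 FPKM in wild type larvae. The mutant larvae were collected at 53 h, against 49 h for wild type, to match their stage, whereas the labels give 68 h for all the adults.

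The summed miRNA level was lower in alg-1(gk214) adults than in any wild type adult. It was 115750 RPM in the mutant, against 191222, 186254 and 175637 RPM in wild type. The log2 ratio of the mutant to wild type 2 was -0.69, and the SD of the 3 wild type sums was 0.063 on the same scale. The other tables were lower by less relative to wild type 2, but without it the piRNA sum, at a log2 ratio of -0.84, was further below wild type than the miRNA sum, at -0.66. Mutator siRNAs summed to 266296 RPM in the mutant, against 425701, 363456 and 348647 RPM in wild type. CSR-1 siRNAs summed to 90400 RPM in the mutant, against 100088, 115084 and 202041 RPM in wild type. The 21U piRNAs summed to 20085 RPM in the mutant, against 36146, 23455 and 35533 RPM in wild type. The mutant was the lowest of the 4 libraries in each table. For piRNAs (log2 ratio -0.22, wild type SD 0.35) and CSR-1 siRNAs (-0.35, SD 0.54) the distance from wild type 2 was under 1 SD. From the mean of the 3 wild type adults the distance was -0.63 for piRNAs and -0.55 for CSR-1 siRNAs, each beyond 1 SD. The 4 tables together held 49.3% of the mutant's reads, against 75.3%, 68.8% and 76.2% in wild type. RPM is scaled to all reads of a library, the remaining reads were not analysed here, and their part in the lower sums was not tested.

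**Figure D1:**
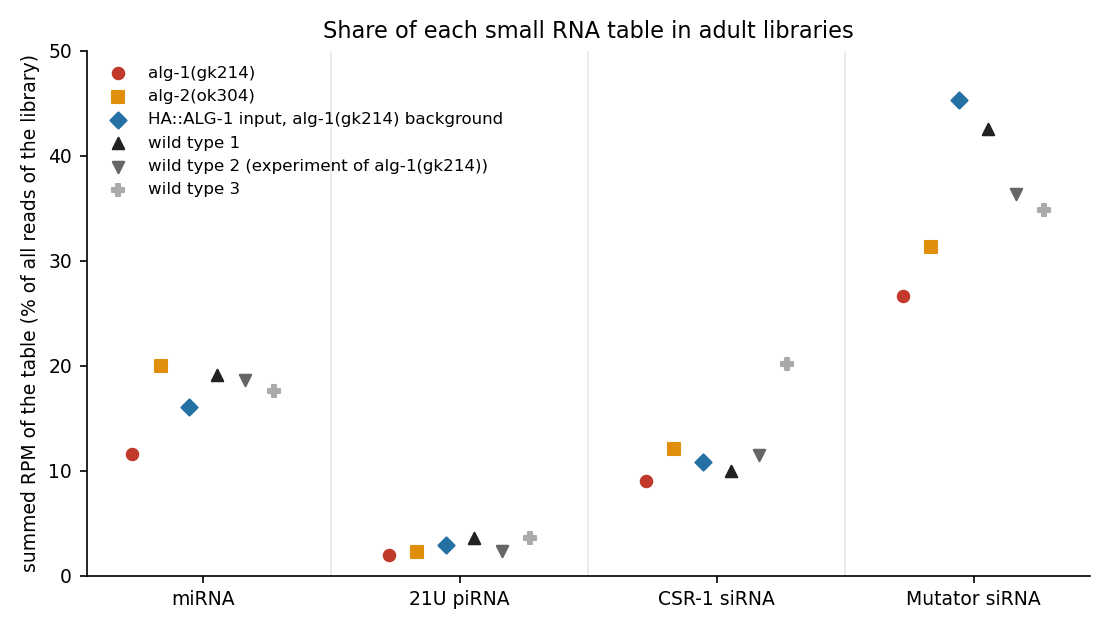
Summed RPM of each small RNA table as a percentage of all reads of the library (y axis) in adult libraries, 1 point per library, with no error bar because each point is 1 sample. alg-1(gk214) is the lowest point in each table, at 11.6% for miRNAs, against 19.1%, 18.6% and 17.6% in wild type.

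Among miRNAs, most calls of passenger arms were higher and most calls of guide arms lower. Of 368 miRNA names, 157 were measured at 10 RPM or more. Of these, 25 were called higher (15.9%) and 37 lower (23.6%), and 14 (8.92%) were at least 2-fold above and 32 (20.4%) at least 2-fold below every wild type adult. The arm of each hairpin with the lower mean over the 3 wild type adults was taken as its passenger, so the assignment itself used the wild type values. Of 54 passenger arms measured, 22 were higher and 9 lower. Of these 54, 12 reached 10 RPM in the mutant alone and 5 in wild type 2 alone, which favours a difference in that direction. Among the 37 passenger arms of at least 10 RPM in both libraries, 11 were higher and 6 lower, with a median log2 difference of 0.27. Among the 84 guide arms of at least 10 RPM in both, 2 were higher and 22 lower, with a median of -0.47. All 157 names had a median of -0.18. All passenger arms summed to 7365 RPM in the mutant, against 3124, 3633 and 3430.1 RPM in wild type. Much of the difference from wild type 2 lay in lin-4-3p (1679 against 229 RPM) and miR-58-5p (1252 against 276 RPM). Guide arms summed to 108141 RPM in the mutant, against 187537, 182328 and 171589 RPM in wild type. Of the 9 lower passenger arms, 7 belong to the mir-35 family described further on.

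The counts of calls depend on scaling and on the comparator. Expressed as a share of the summed RPM of the 4 tables, 41 miRNA names were higher and 26 lower. Within the miRNA table alone, 49 were higher and 21 lower, and after TMM scaling, which assumes that most names do not differ, 34 were higher and 34 lower. These scalings moved the median of all miRNA differences to 0.30, 0.50 and -0.00, so the differences quoted in RPM are best read against the median of -0.18. Without wild type 2, 32 names were higher and 73 lower, and only 16 of the 32 were among the 25 called higher against wild type 2. A test of the 1 mutant library against the 3 wild type adults, which assumes that the mutant would vary like wild type, called 0 miRNAs (0%) in edgeR and 0 (0%) in limma after Benjamini-Hochberg adjustment, with 35 and 37 names at an unadjusted p under 0.05.

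**Figure D2:**
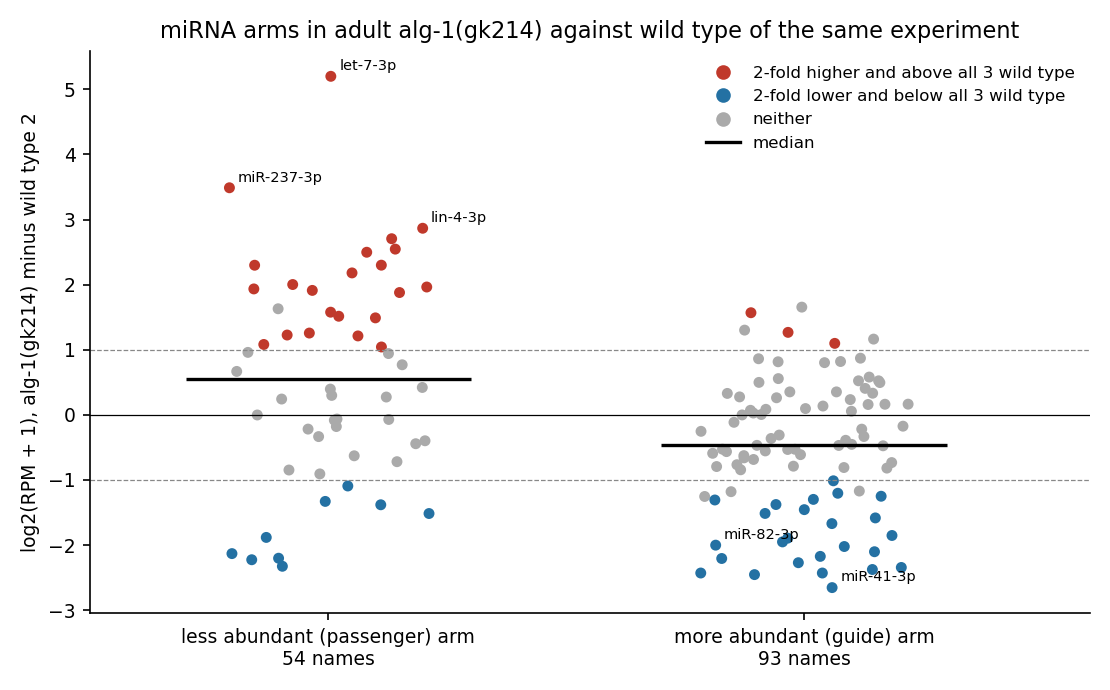
Difference in log2(RPM + 1) of alg-1(gk214) minus wild type 2 (y axis) for the less abundant and the more abundant arms of miRNA hairpins, 1 point per name of at least 10 RPM in either library. Horizontal bars are medians over the names plotted, 0.54 and -0.47, which include names that reach 10 RPM in 1 of the libraries alone, dashed lines mark a 2-fold difference, and let-7-3p, at 5.20, is the highest point.

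let-7-3p, the passenger arm of let-7, had the largest difference of any miRNA. It was at 172 RPM in alg-1(gk214), against 1.39, 3.7 and 1.31 RPM in wild type. The mutant library held 528 reads of it and wild type 2 held 6, a ratio of 46.4 with an exact 95% counting interval of 21.2 to 127. The interval reflects counting error alone, because PCR copies of a molecule cannot be recognised in these reads. Its adjusted p was 0.0791 in limma and 0.051 in edgeR, which set the mutant against the 3 wild type adults. The guide, let-7-5p, was at 36.8 RPM in the mutant, against 321, 30.2 and 535 RPM in wild type. The mutant and wild type 2 did not differ in the guide beyond counting error, with a ratio of 1.22 (0.863 to 1.74), and both lay far below wild type 1 and 3. The passenger thus made up 82.4% of let-7 reads in the mutant (Wilson 95% interval 79.2% to 85.1%), against 0.432%, 10.9% and 0.244% in wild type.

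The passenger of lin-4 was also higher. This arm, lin-4-3p, was at 1679 RPM in alg-1(gk214), against 57, 229 and 57.1 RPM in wild type, a ratio of 7.32 to wild type 2 (6.59 to 8.15). Its guide, lin-4-5p, was at 1368 RPM in the mutant, against 615, 2374 and 525 RPM in wild type, inside the wild type range. The passenger was 55.1% of lin-4 reads in the mutant (54.1% to 56.1%), against 8.48%, 8.81% and 9.80% in wild type. miR-237 shares its seed family with lin-4. Its passenger, miR-237-3p, was at 51.7 RPM in the mutant, against 3.22, 3.7 and 3.7 RPM in wild type, a ratio of 14.0 to wild type 2 (6.29 to 38.7). Its guide, miR-237-5p, was at 1915 RPM in the mutant, against 1495, 2927 and 812 RPM in wild type.

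The 10 names called higher with the largest differences were all passenger arms by this definition, and 7 of them were under 10 RPM in wild type 2. miR-58-5p, from the hairpin of the abundant miR-58, was at 1252 RPM in alg-1(gk214), against 344, 276 and 362 RPM in wild type. miR-82-5p, of the same seed family, was at 144 RPM in the mutant, against 12.1, 28.4 and 16.9 RPM in wild type. miR-85-5p was at 43 RPM in the mutant, against 4.01, 6.78 and 7.39 RPM in wild type. For these 3 names the mutant lay more than 2-fold above the highest wild type adult. miR-90-5p was at 61.8 RPM in the mutant, against 14.7, 8.63 and 17.9 RPM in wild type, while its guide miR-90-3p was at 6945 RPM in the mutant, against 6448, 6922 and 2687 RPM. The last 3 rest on few wild type 2 reads. miR-84-3p, from the let-7 family, was at 12.0 RPM in the mutant, against 6.71, 1.23 and 5.72 RPM in wild type. Its ratio to the 2 reads of wild type 2 was 9.77 (2.52 to 83.6). miR-83-5p and miR-246-5p had 3 reads each in wild type 2, with ratios of 7.04 (2.24 to 35.6) and 5.63 (1.76 to 28.7). miR-83-5p was at 13.0 RPM in the mutant, against 7.49, 1.85 and 5.60 RPM in wild type. miR-246-5p, at 10.4 RPM in the mutant and 9.42 RPM in wild type 3, was just outside the wild type range. Without wild type 2, the log2 difference was 0.86 for miR-84-3p in place of 2.55, 0.90 for miR-83-5p in place of 2.30 and 0.93 for miR-246-5p in place of 2.00, each short of 2-fold.

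**Figure D3:**
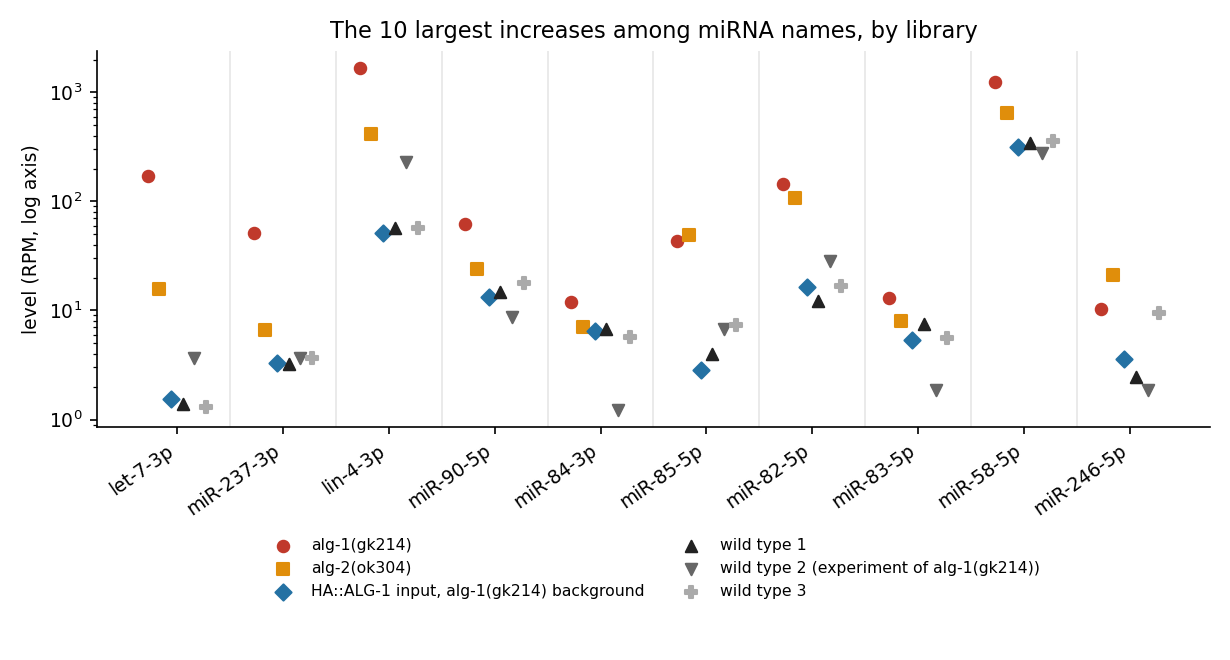
Level in RPM on a log axis (y axis) of the 10 miRNA names called higher with the largest difference (x axis), 1 point per library and no error bars, since each point is 1 sample. let-7-3p is at 172 RPM in alg-1(gk214) and between 1.31 and 3.7 RPM in wild type.

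Arm balance could be compared within each hairpin, where library scaling cancels. Of 93 hairpins with a guide of at least 10 RPM, 54 (58.1%) had a passenger share in alg-1(gk214) above all 3 wild type adults and 8 (8.6%) below all 3. The median passenger share was 3.08% in the mutant, against 1.51%, 1.64% and 1.65% in wild type. The mutant was above wild type 2 in 75 of the 93 hairpins, while wild type 1 was above wild type 2 in 50 and wild type 3 in 51. In mir-64 the passenger share was 38.4% in the mutant (36.1% to 40.8%), against 1.51%, 10.9% and 2.39% in wild type, and the passenger itself, miR-64-3p, was at 204 RPM in the mutant, against 47.7, 216 and 74.5 RPM. In mir-235 it was 18.7% in the mutant (17.2% to 20.3%), against 0.307%, 1.54% and 0.646% in wild type, with a higher passenger and a lower guide. In mir-82 it was 8.35% in the mutant (7.63% to 9.12%), against 0.174%, 0.447% and 0.259% in wild type.

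Some hairpins had most of their reads on the arm that is less abundant in wild type 1 and 3. The passenger of mir-71, a miRNA known for its part in adult lifespan, was 89.6% of the hairpin's reads in the mutant, against 29.3%, 68.2% and 26% in wild type. The passenger of mir-85 was 74.2% in the mutant, against 5.94%, 36.7% and 5.76% in wild type. In both, wild type 2 lay between the mutant and the other wild type adults, and alg-2(ok304) of the same experiment was at 89.5% for mir-71 and 72.1% for mir-85, close to the mutant. That library is 1 sample of adults lacking functional ALG-2, with the genotype alg-2(ok304) II. For let-7 and lin-4, alg-2(ok304) had a passenger share of 29.2% and 10.3%. Both shares lay above every wild type adult, for lin-4 by little, and well below alg-1(gk214).

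Lower guide arms included most members of some families and gene neighbourhoods. The mir-35 family, mir-35 to mir-42, is made in oocytes and embryos and is needed for embryonic survival. Its guide arms summed to 6258 RPM in alg-1(gk214), against 41384, 29496 and 29265 RPM in wild type. Of its 8 guides, 7 were lower, beside 25 of all 93 measured guide arms. With both arms included, 14 of the family's 15 measured names were lower, beside 37 of all 157 names. The log2 ratio of the family sum to wild type 2 was -2.23, or -1.55 as a share of all miRNA reads. miR-35-3p was at 1534 RPM in the mutant, against 8927, 7969 and 6392 RPM in wild type. miR-39-3p was at 876 RPM in the mutant, against 6883, 4809 and 3516 RPM in wild type. miR-38-3p was at 324 RPM in the mutant, against 4627, 1751 and 2767 RPM in wild type. The mutant lay below all 3 wild type adults for each of these. miR-41-3p, at 192 RPM in the mutant and 500.3, 1212 and 421 RPM in wild type, had the lowest ratio to wild type 2 among the family's guides, 6.32-fold lower (5.76 to 6.95). The family's 7 measured passengers were lower as well, beside 9 of all 54 measured passenger arms. miR-35-5p was at 15.9 RPM in the mutant, against 147, 78.3 and 159 RPM in wild type, and the passenger share of mir-35 was 1.03%, against 1.62%, 0.973% and 2.43%.

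The exception in the family was miR-42-3p, at 65.4 RPM in alg-1(gk214), against 45.6, 81.4 and 28.8 RPM in wild type. In the RefSeq annotation of assembly WBcel235, mir-35 to mir-41 are 7 neighbouring genes with gaps of at most 5000 bases, and the guides of all 7 were lower. mir-42 lies elsewhere, beside mir-43 and mir-44, and none of the 3 guides there was called, with log2 differences of -0.31 to 0.35. In whole animals, fewer cells of a type and less RNA per cell cannot be told apart, and embryos held in the mother add to this family. alg-2(ok304) was lower still, with a mir-35 family sum of 3655 RPM beside 6379 RPM in alg-1(gk214), whereas the family was at 40416 RPM in the HA::ALG-1 input library.

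**Figure D4:**
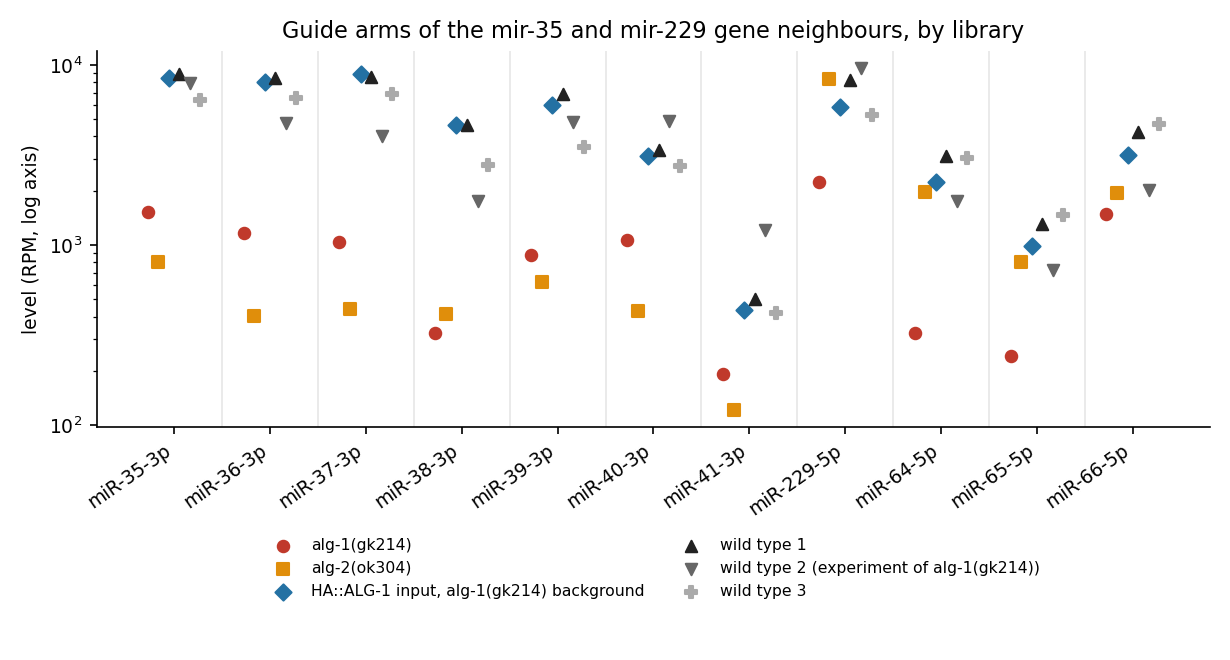
Level in RPM on a log axis (y axis) of the guide arms of 2 groups of neighbouring miRNA genes (x axis), 1 point per library and no error bars, since each point is 1 sample. alg-1(gk214) and alg-2(ok304) are both below wild type for miR-35-3p to miR-41-3p, but for miR-229-5p, miR-64-5p and miR-65-5p alg-2(ok304) is within the wild type range.

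The neighbouring genes mir-229, mir-64, mir-65 and mir-66 gave a different pattern. miR-64-5p was at 326 RPM in alg-1(gk214), against 3109, 1764 and 3039 RPM in wild type, 5.40-fold below wild type 2 (5.03 to 5.81). miR-229-5p was at 2237 RPM in the mutant, against 8262, 9616 and 5259 RPM in wild type. miR-65-5p was at 242 RPM in the mutant, against 1305, 729 and 1468 RPM in wild type. All 3 were called lower. miR-66-5p, at 1481 RPM in the mutant and 4229.9, 2029 and 4690.4 RPM in wild type, was below the wild type range but less than 2-fold below wild type 2. Together with mir-63, these genes form the mir-64 family, whose guide arms summed to 4308 RPM in the mutant, against 16977, 14169 and 14605 RPM in wild type. alg-2(ok304) had 13134 RPM of the same guides, near wild type, whereas both mutants were low in the mir-35 family; the difference between the mutants was not tested.

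The mir-58 family, mir-58 and mir-80 to mir-82 among others, holds some of the most abundant miRNAs of the worm. miR-82-3p was at 1576 RPM in alg-1(gk214), against 6953, 6316 and 6512 RPM in wild type. miR-81-3p, from the neighbouring gene, was at 1378 RPM in the mutant, against 4124, 3785 and 3657 RPM in wild type. These were the family's 2 lower guides, and the wild type adults lay close together for both. miR-80-3p was at 11174 RPM in the mutant, against 16057, 19588 and 18499.9 RPM in wild type. miR-58-3p was at 7741 RPM in the mutant, against 16596, 11454 and 19779 RPM. Both were below all wild type adults but less than 2-fold below wild type 2. The family's log2 ratio to wild type 2 was -0.82 in RPM and -0.14 as a share of all miRNA reads, a distance that depends on scaling. Its passenger arms summed to 1692 RPM in the mutant, against 596, 505 and 701 RPM in wild type. Of the 4 measured, 3 were higher, beside 22 of all 54 measured passenger arms.

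Single guides outside these families were also lower. miR-799 had the lowest ratio of all names, with 2 reads or 0.651 RPM in alg-1(gk214), against 33.4, 22.2 and 28.5 RPM in wild type. It was 34.1-fold below wild type 2, with a wide counting interval of 8.78 to 292, and it was at 24.2 RPM in alg-2(ok304). miR-235-3p, a miRNA that acts in larval quiescence, was at 642 RPM in the mutant, against 2886, 3266 and 1539 RPM in wild type. miR-1829a-3p was at 5.21 RPM in the mutant, against 23.8, 29.0 and 14.9 RPM in wild type. miR-235-3p was at 4315 RPM in alg-2(ok304), above all wild type adults, while miR-1829a-3p was at 7.06 RPM there. Both miR-799 and miR-1829a-3p were under 10 RPM in alg-1(gk214) and were measured only through their level in wild type 2.

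Other families had few guides called lower, or none. miR-52-5p, the most abundant miRNA of the mutant library, was at 18978 RPM in alg-1(gk214), against 5099, 16939.9 and 4346 RPM in wild type. With both arms included, the mir-51 family to which it belongs had a log2 ratio of -0.14 to wild type 2. This turned to 0.73 against the mean of the 3 wild type adults. Of the family's 6 guides, 1 was called lower, miR-55-3p, with a log2 difference of -1.31 from wild type 2. With both arms included, the let-7 family summed to 692 RPM in the mutant, against 2044, 382 and 1765 RPM in wild type. The log2 ratio of that sum, 0.86 to wild type 2, became -1.46 against wild type 1 and 3. For the lin-4 family, both arms included, -0.14 became 1.53, so no direction is given for these 3 families. For guide arms alone, the log2 ratio to wild type 2 was 0.43 for the let-7 family and -0.69 for the lin-4 family. The let-7 family's guide arms summed to 490 RPM in the mutant, against 2009, 364 and 1732 RPM in wild type. miR-72-5p, of the mir-72 family, was at 5521 RPM in the mutant, against 6448, 4604 and 7315 RPM in wild type, and none of that family's 3 guides was called. Of the 4 guides of the mir-44 family, miR-247-3p was higher, at 16.6 RPM in the mutant and 13.3, 4.93 and 9.78 RPM in wild type. It was under 10 RPM in wild type 2 and was measured only through its level in the mutant. miR-44-3p and miR-45-3p, whose mature forms are the same, are listed with the same values in the mutant and could not be told apart. None of the 3 measured guides of the mir-2 family was called.

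miRNAs of differentiated tissues and of adults were mixed. Among muscle and neuron miRNAs, none of 4 guides was called, and miR-124-3p, a neuronal miRNA, was at 48.5 RPM in alg-1(gk214), against 69.8, 67.8 and 51.5 RPM in wild type. The muscle miRNA miR-1-3p was at 11.1 RPM in the mutant, against 65.7, 7.40 and 174 RPM, and its passenger miR-1-5p at 45.2 RPM, against 24.6, 11.1 and 33.7 RPM. Of the 6 guides of the adult and ageing list, miR-239a-5p was higher and miR-246-3p lower. miR-239a-5p was at 669 RPM in the mutant, against 316, 277 and 539 RPM in wild type. miR-246-3p was at 258 RPM in the mutant, against 547, 596 and 593 RPM in wild type.

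The HA::ALG-1 input library offers the same mutation with ALG-1 restored. These adults carry alg-1(gk214) X and a transgene, alg-1::HA::alg-1 IV, that makes tagged ALG-1, and they belong to the experiment of wild type 1. Of 153 miRNA names, 0 (0%) were at least 2-fold higher and 6 (3.92%) at least 2-fold lower in HA::ALG-1 input than in wild type 1. let-7-3p was at 1.55 RPM there, lin-4-3p at 50.8 RPM and miR-58-5p at 313 RPM, each near the wild type values given earlier. Their guides in the HA::ALG-1 immunoprecipitate far exceeded the passengers, with lin-4-5p at 1573 RPM and lin-4-3p at 17.2 RPM. In adults with the same mutation and HA-tagged ALG-2 from the transgene alg-1::HA::alg-2 IV, the ALG-1::HA::ALG-2 input, let-7-3p was at 5.79 RPM and miR-58-5p at 996 RPM, both between wild type and alg-1(gk214). lin-4-3p, at 131 RPM there, was below wild type 2 but above the 57 RPM of wild type 1, of its own experiment. The lin-4 passenger share there was 18.2%, against 8.48%, 8.81% and 9.80% in wild type. The median passenger share was 2.40% in ALG-1::HA::ALG-2 input, 1.45% in HA::ALG-1 input and 2.05% in alg-2(ok304). Each of these is 1 library. No alg-1(gk214) library without a transgene belongs to the experiment of wild type 1. An effect of the transgenes and a difference between experiments therefore cannot be told apart.

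alg-1(gk214) and alg-2(ok304), of the same experiment, differed from each other as well. Of 157 miRNA names, 9 (5.73%) were at least 2-fold higher and 38 (24.2%) at least 2-fold lower in alg-1(gk214) than in alg-2(ok304). The summed miRNA level in alg-2(ok304), 199791 RPM, was above that of every wild type adult. Passenger arms summed to 7365 RPM in alg-1(gk214) and 5829 RPM in alg-2(ok304), so both mutants exceeded the wild type range of 3124 to 3633 RPM, while let-7-3p, was at 172 RPM in alg-1(gk214) and 15.6 RPM in alg-2(ok304). Among 2259 Mutator loci, 11 (0.487%) were at least 2-fold higher and 457 (20.2%) at least 2-fold lower in alg-1(gk214) than in alg-2(ok304).

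Mutator siRNAs gave the largest number of lower loci. Of 2361 loci measured, 80 were higher (3.39%) and 764 lower (32.4%) in alg-1(gk214). Against every wild type adult, 40 (1.69%) were at least 2-fold higher and 660 (28%) at least 2-fold lower. The lower loci held 11.6% of the mutant's Mutator siRNA level, against 25.6%, 28.0% and 27.5% in wild type. Their median level was 12.9 RPM in the mutant, against 48.5, 48.8 and 51.1 RPM in wild type. The same values chose these loci, so a lower share and median in the mutant follow from the rule for calls. The wild type adults differed little from each other in this table, with 50 (2.08%) of 2403 loci at least 2-fold higher and 13 (0.541%) at least 2-fold lower in wild type 1 than in wild type 2. The split moved with scaling, to 218 higher and 463 lower as a share of the 4 tables, 215 and 480 as a share of the Mutator table, and 237 and 437 with TMM factors. In limma, with Benjamini-Hochberg adjustment and the assumption that the mutant varies like wild type, 118 loci (5%) were higher and 1061 (44.9%) lower. Of the 764 lower loci, 694 are protein-coding or other genes of the table's gene class, 41 are pseudogenes, 16 are coding sequences listed separately and 13 are transposons. As a share of those measured, 38.4% of genes, 23.4% of pseudogenes and 6.88% of transposons were lower.

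The siRNAs of individual loci differed by more than 10-fold. ZC239.21 had 2.28 RPM in alg-1(gk214), against 113, 76.8 and 81.7 RPM in wild type. F20D6.10 had 2.60 RPM in the mutant, against 57.8, 59.8 and 75 RPM in wild type. Y73B6A.6, at 0.976 RPM in the mutant, and C33D9.5, at 1.30 RPM, were near the limit of 3 reads, or 0.976 RPM, in that library, against 27.7 RPM or more and 22.2 RPM or more in wild type. Among genes with a class name, unc-10, which encodes a synaptic vesicle priming protein, had 33.2 RPM of siRNAs in the mutant, against 352, 354 and 394 RPM in wild type. npr-11, a neuropeptide receptor gene, had 7.98 RPM in the mutant, against 80.7, 103 and 84.7 RPM in wild type. nhr-64, a nuclear hormone receptor gene, had 5.11 RPM in the mutant, against 31.8, 63.5 and 62.6 RPM in wild type. The F-box gene fbxc-37 had 7.32 RPM in the mutant, against 149.7, 104 and 131 RPM in wild type. In all 8 the mutant was far below the lowest wild type adult. alg-2(ok304) lay between, for example at 154 RPM for unc-10 and 15.9 RPM for ZC239.21. All of the 8 but unc-10 were under 10 RPM in the mutant and were measured only through their level in wild type 2.

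A smaller set of Mutator loci had more siRNAs. nhr-229, another nuclear hormone receptor gene, had 763 RPM in alg-1(gk214), against 138, 108 and 132 RPM in wild type. F46F5.5 had 331 RPM in the mutant, against 58.7, 49.0 and 37.8 RPM in wild type. The F-box gene fbxa-40 had 198 RPM in the mutant, against 39.2, 29.7 and 28.2 RPM in wild type. The mutant was more than 4-fold above the highest wild type adult for each of these. T11G6.7 had 231 RPM in the mutant, against 36.6, 25.9 and 41.2 RPM in wild type. Y53G8AM.1 had 386 RPM in the mutant, against 49.8, 49.1 and 48.6 RPM, and a transposon entry had nearly the same values in every library, 399 RPM in the mutant and 51.4, 51 and 50.4 RPM in wild type, so these 2 entries may count the same reads. csp-2, a caspase-related gene, had 99.3 RPM in the mutant, against 35, 28.0 and 31.7 RPM in wild type. fbxb-95 had 93.6 RPM in the mutant, against 40.4, 27.4 and 24.6 RPM. alg-2(ok304) again lay between, at 486 RPM for nhr-229 and 209.8 RPM for F46F5.5, and HA::ALG-1 input was at wild type levels, at 127 RPM and 46.5 RPM.

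**Figure D5:**
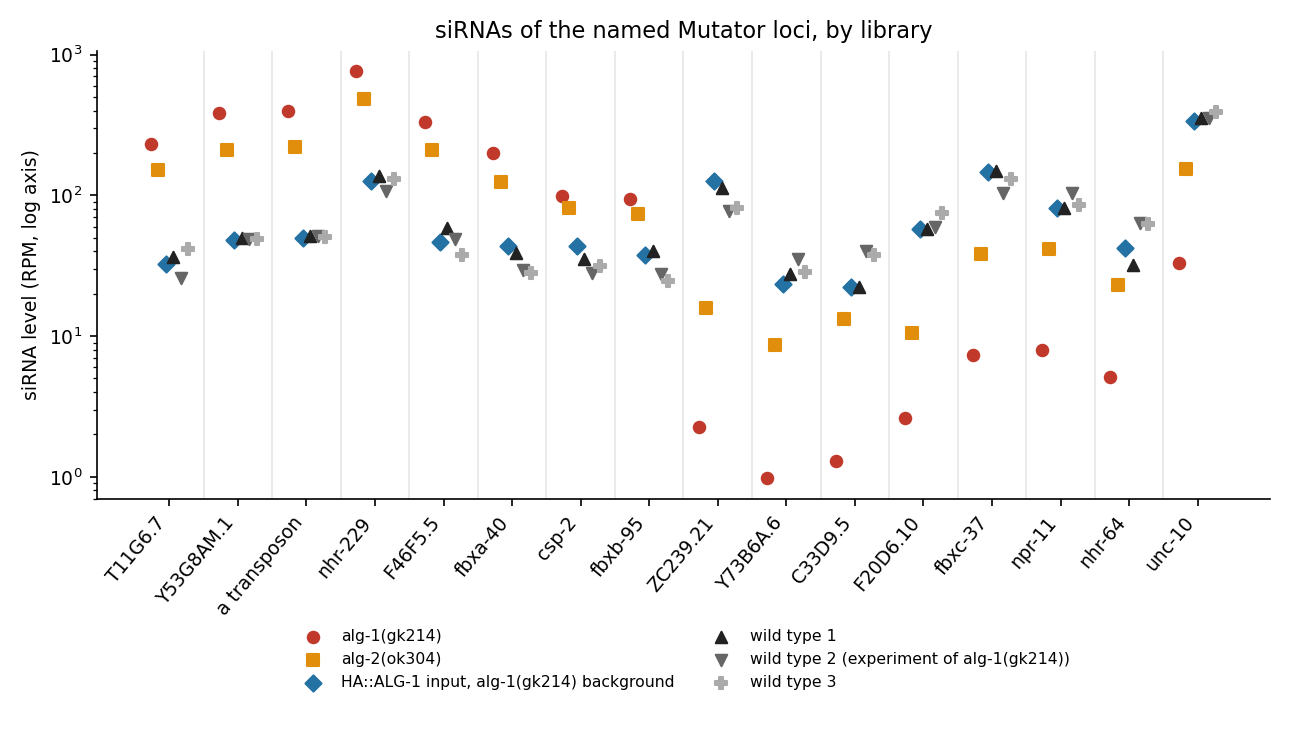
siRNA level in RPM on a log axis (y axis) at the named Mutator loci (x axis), the 8 higher ones first, 1 point per library and no error bars, since each point is 1 sample. alg-1(gk214) is outermost at each locus and alg-2(ok304) lies between it and wild type, as for unc-10 at 33.2, 154 and at least 352 RPM.

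HA::ALG-1 input resembled wild type 1, of its own experiment, in this table. Of 2401 loci, 12 (0.5%) were at least 2-fold higher and 4 (0.167%) at least 2-fold lower in HA::ALG-1 input than in wild type 1. The median level of the 764 lower loci was 52.2 RPM in HA::ALG-1 input, 37.9 RPM in ALG-1::HA::ALG-2 input and 30.1 RPM in alg-2(ok304), and that of the 80 higher loci was 41.4, 59.5 and 57.3 RPM, beside 82.9 RPM in alg-1(gk214) and 34.1, 21.6 and 25.5 RPM in wild type. Both sets were chosen by the alg-1(gk214) and wild type levels, so the distance between those levels follows from the rule for calls. The gene lists are read against the 32.4% of all loci called lower. siRNAs of 4 of 11 histone genes were lower, his-31, his-35, his-37 and his-38, a share near that of all loci. Among 4 measured genes of the siRNA machinery, wago-2 and rrf-2 were lower. wago-2 encodes one of the worm-specific Argonautes, and its siRNAs were at 155 RPM in alg-1(gk214), against 535, 412 and 444 RPM in wild type. rrf-2 encodes an RNA-dependent RNA polymerase, and its siRNAs were at 84.3 RPM in the mutant, against 205, 177 and 174 RPM. Among collagens 2 of 10 were lower, col-38 and col-111, which is no excess over all loci, and the single heat shock gene, hsp-2, was lower, at 23.3 RPM in the mutant against 79.2, 72.4 and 55.9 RPM.

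CSR-1 siRNAs differed at fewer loci. Of 2612 genes measured, 17 were higher (0.651%) and 256 lower (9.8%) in alg-1(gk214). Against every wild type adult, 13 (0.498%) were at least 2-fold higher and 115 (4.4%) at least 2-fold lower. Wild type 3 was itself far from wild type 2 here, with 913 (30.2%) of 3021 genes at least 2-fold higher and 11 (0.364%) at least 2-fold lower. Scaled to the 4 tables together, 77 genes were higher and 64 lower. Within the CSR-1 table alone, 61 were higher and 93 lower, and with TMM factors 69 and 84. Without wild type 2, 30 genes were higher and 650 lower. limma called 2 genes higher (0.0766%) and 0 lower (0%) after Benjamini-Hochberg adjustment. Before adjustment, 84 genes had p under 0.05.

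The gene with the largest difference was klc-2, which encodes a kinesin light chain. Its siRNAs were at 436 RPM in alg-1(gk214), against 14.5, 36.5 and 8.68 RPM in wild type, 11.9-fold above wild type 2. They were at 83.7 RPM in alg-2(ok304) and 8.95 RPM in HA::ALG-1 input. The klc-2 mRNA of L4 larvae, in other animals, was 50.4 ± 6.67 FPKM in alg-1(gk214) and 47.8 ± 7.43 FPKM in wild type (SD, n = 3 each). Ribosomal protein genes were the list with most higher members, 5 of 16, beside 17 (0.651%) of all 2612 genes. The 5 are named because the count is small: rps-23, rpl-35, rpl-27A, rpl-30 and rps-19. rps-23 siRNAs were at 147 RPM in the mutant, against 18.5, 37 and 25.2 RPM in wild type, and rpl-35 siRNAs at 16.3 RPM, against 5.05, 3.08 and 4.89 RPM. Of the 5, rpl-35, rpl-30 and rps-19 were under 10 RPM in wild type 2 and were measured only through their level in the mutant. siRNAs of rpn-8, a proteasome subunit gene, were at 31.6 RPM in the mutant, against 8.88, 12.3 and 22.1 RPM in wild type. Those of uaf-2, a splicing factor gene, were at 111 RPM in the mutant, against 20.8, 46.5 and 47.0 RPM. The other genes named by the rule, cisd-3.1, tbc-12 and T12F5.2, were 2.79-fold to 4.11-fold above wild type 2. Of these, cisd-3.1 and T12F5.2 were also under 10 RPM in wild type 2 and were measured only through their level in the mutant.

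Among CSR-1 genes with fewer siRNAs, ipla-3 had 23.8 RPM in alg-1(gk214), against 193, 124 and 169 RPM in wild type. F43G6.7 had 6.02 RPM in the mutant, against 40.3, 35.1 and 42.4 RPM in wild type. mrps-18A, a mitochondrial ribosomal protein gene, had 4.56 RPM in the mutant, against 24.7, 26.5 and 37.7 RPM. The mutant was below the lowest wild type adult by more than 5-fold in each. arle-14, Y69A2AR.17, M02B7.2 and arrd-13 were 5.09-fold to 8.44-fold below wild type 2. Y32H12A.6, at 0.976 RPM in the mutant, was at the limit of 3 reads. All these lower genes except ipla-3 and arle-14 were under 10 RPM in the mutant and were measured only through their level in wild type 2. Of 25 measured genes of the siRNA machinery, ergo-1 and rde-12 were lower, a share near the 9.8% of all CSR-1 genes. ergo-1 encodes an Argonaute of primary siRNAs and had 14.6 RPM in the mutant, against 35.7, 37.5 and 42.5 RPM in wild type. The 4 tubulin, 5 heat shock and 2 histone genes measured had no call.

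At least 1 read was seen for 6427 of 15366 piRNAs in alg-1(gk214), against 9080, 4475 and 9236 in wild type. Detection depends on depth, which was 3073089 reads in the mutant and 11483791, 1622092 and 8388498 reads in wild type. These counts are therefore no measure of piRNA level. Of 540 piRNAs of at least 10 RPM in the mutant or wild type 2, 112 were higher (20.7%) and 134 lower (24.8%) in the mutant. Of the 540, 70 (13%) were at least 2-fold above and 94 (17.4%) at least 2-fold below every wild type adult. The mutant had 381 piRNAs of at least 10 RPM and wild type 2 had 403. Part of the 540 thus reached 10 RPM in 1 library alone, which favours a difference in that direction. Between wild type adults, 399 (50.3%) of 793 were at least 2-fold higher and 36 (4.54%) at least 2-fold lower in wild type 1 than in wild type 2. Scaled to the 4 tables together, 203 were higher and 53 lower. Within the piRNA table alone, 149 were higher and 77 lower, and with TMM factors 158 and 74. Without wild type 2, 110 were higher and 657 lower. On recovered reads, edgeR called 47 higher (8.7%) and 12 lower (2.22%), and limma 32 (5.93%) and 25 (4.63%).

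Individual piRNAs differed in both directions. 21ur-2803 was at 21.5 RPM in alg-1(gk214), against 1.65, 0.616 and 1.19 RPM in wild type, a ratio of 34.8 to the 1 read of wild type 2 (6.04 to 1397). 21ur-10435 was at 19.2 RPM in the mutant, against 5.40, 0 and 4.89 RPM in wild type, at least 10.4-fold higher than the limit of 3 reads in wild type 2. 21ur-10287 and 21ur-2614 were at 13.0 and 12.4 RPM in the mutant and at most 3.13 RPM in wild type. 21ur-323 was at 1.63 RPM in the mutant, against 15.2, 16.6 and 28.4 RPM in wild type, 10.2-fold below wild type 2. 21ur-5755 was at 5.53 RPM in the mutant, against 49.0, 29.0 and 45.8 RPM in wild type. 21ur-1579 and 21ur-5321 were at 2.60 and 2.28 RPM in the mutant and at 14.8 RPM or more in wild type. The named higher piRNAs were under 10 RPM in wild type 2 and the named lower ones under 10 RPM in the mutant. Each was therefore measured through 1 library alone. In HA::ALG-1 input 21ur-2803 was at 1.29 RPM and 21ur-323 at 17.1 RPM, and over 764 piRNAs 0 (0%) were at least 2-fold higher and 10 (1.31%) at least 2-fold lower than in wild type 1.

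The mRNAs of genes with altered siRNAs were compared in the L4 libraries, which are of another stage. Among 14554 genes of at least 1 FPKM in either group, all 3 alg-1(gk214) libraries were above all 3 wild type libraries for 13.5% and below them for 15.2%. Of 508 such genes with lower Mutator siRNAs, 68 (13.4%) were above and 62 (12.2%) below, near those shares. Of 256 genes with lower CSR-1 siRNAs, 41 (16.0%) were above and 21 (8.2%) below, beside 369 (14.2%) and 235 (9.02%) of all 2604 measured CSR-1 genes. The mRNA of unc-10 was 6.78 ± 1.34 FPKM in alg-1(gk214) and 3.98 ± 1.54 FPKM in wild type, and that of nhr-64 was 18.5 ± 4.46 FPKM in alg-1(gk214) and 22.4 ± 6.03 FPKM in wild type (SD, n = 3 each). The mRNA of ZC239.21 was listed at 0.154 FPKM in 1 alg-1(gk214) library and at 0 in the other alg-1(gk214) libraries and in all 3 wild type libraries.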

How the data were processed

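The authors deposited RPM for each small RNA class: miRNAs (375 entries, summed here to 368 names), 21U piRNAs, siRNAs of the CSR-1 class and siRNAs of the Mutator class. The alignment behind them is not given in the sources used here. For L4 mRNA the authors deposited FPKM, and the submitters' processing notes name Cuffdiff. Low piRNA values were whole multiples of 1 step, taken as 1 read, which gave library totals; 99.1% to 99.4% of piRNA values and 93.9% to 96.4% of miRNA values were whole within 0.02 of a read. Of CSR-1 values 53.5% to 67.5% were whole, and of Mutator values 30.3% to 38.4%. Calls used log2(RPM + 1), a minimum of 10 RPM and a 2-fold difference. The count of arms reaching the minimum in both libraries was added after the data were seen. The members and lists were chosen with earlier results of these data known. Names printed were the 10 highest and 10 lowest called miRNAs and the lists, 8 and 8 siRNA loci per table (at most 3 per gene class and 4 with a sequence name only) and 4 and 4 piRNAs. Intervals are exact for ratios and Wilson for shares, at 95%, and cover counting error only. Replicates are 3 wild type samples, for which separate cultures are not stated. edgeR 4.0.16 and limma 3.58.1, with R 4.3.3 and Benjamini-Hochberg adjustment at 0.05, tested 1 library against 3. They were also run on simulated reads in which all wild type libraries shared the same means. Wild type 2 stood apart in the real data, so that run does not show how the tests perform here. Gene names matched RefSeq WBcel235 for 3600 CSR-1 and 1999 Mutator entries. The 27 genes in both siRNA tables count in each. 7 small RNA and 9 mRNA sample columns were not used.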

Additional observations from a re-analysis of the deposited data

How the results depend on the processing

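No paired analysis was possible because the mutant has 1 library and the result comes from no test. The mutant is 1 library, so its own spread is unknown, and wild type 2, the shallowest library, limits names of few reads. Of 414 values of 69 named features under alternatives, 413 kept their direction and 1 turned: miR-58-3p, -0.57 in RPM, was 0.12 as a share of the miRNA table. Most of these features were named because they lay outside the range of all 3 wild type adults. Their direction against other wild type references therefore follows from that choice. In size, 209 values stayed within 1 wild type SD of the original value and 205 moved further. Relative to the counts in the report, a filter-free piRNA table gave 677 higher and 616 lower, and CSR-1 siRNAs 33 and 385. Against the mean of the 3 wild type adults, 210 piRNAs were lower, 30 CSR-1 genes higher and 402 lower. Leaving out each wild type adult in turn gave 25 to 32 higher and 38 to 73 lower miRNAs. The same gave 110 to 115 higher and 137 to 657 lower piRNAs, and 17 to 30 higher and 257 to 650 lower CSR-1 genes. For Mutator loci it gave 58 to 82 higher and 764 to 876 lower. Of the 32 higher miRNAs without wild type 2, 16 were among the 25 called higher against wild type 2. By scaling, miRNAs were 49 higher and 21 lower (own table) and 41 higher (4 tables); piRNAs 203 higher (4 tables), and 74 (TMM), 77 (own table) and 53 (4 tables) lower; CSR-1 genes 69, 61 and 77 higher and 84, 93 and 64 lower; Mutator loci 237, 215 and 218 higher and 437, 480 and 463 lower. The share of 4 tables and limma were chosen after seeing the data. Tests gave 0 and 0 miRNAs in edgeR and in limma, 47 and 12 piRNAs in edgeR, 32 and 25 in limma, and 2 and 0 CSR-1 genes in limma. edgeR was not run on siRNA values, many of which are not whole reads. In log2 of sums, piRNAs were -0.63 against the wild type mean and -0.84 without wild type 2. The let-7 family turned to -0.69 and -1.46 under these, the lin-4 family to 0.97 and 1.53 and the mir-51 family to 0.73 and 1.17; as a share of miRNAs the lin-4 and mir-51 families were 0.54, and lin-4 without its most abundant member was 0.25. The cause was not tested. The mir-35 family was -1.55, the mir-58 family -0.14 and passenger arms 1.71 as a share of miRNAs, and the last 2 were -0.99 and 1.17 without wild type 2.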
